A study of Homo sapiens with 18 samples.

Results

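THP-1 is an established human monocytic leukaemia cell line that is widely used as a model of the monocyte. The response described here is that of THP-1 cells carrying a scrambled siRNA (SCR), a control duplex sold as matching no human transcript, whose sequence its supplier does not disclose. Its members were the 3 SCR libraries without LPS (replicates 1, 2 and 3) and the 3 SCR libraries with LPS (replicates 4, 5 and 6), 6 of the 18 libraries of the series, and all genes that passed a filter on low counts, 16678 of the 63677 in the count table. All SCR cells were transfected with 25 nM siRNA, and from 72 h later they were kept for 4 h with 10 ng/ml LPS or with medium alone and then collected. The heading of one of the study's tables gives a shorter LPS time, and the 4 h of the labels and methods is used here. For comparison the series holds 3 unstimulated and 3 LPS-treated libraries each of THP-1 cells without siRNA (WT) and with an siRNA against TRAFD1 (KD), the regulator that the study was about. The labels call WT untreated whereas the methods describe cells given the transfection reagent alone, so that in SCR against WT the siRNA and the transfection cannot be told apart. All cells come from a single line of transformed cells, and the labels do not say whether replicates were separate transfections, so that p-values measure the spread between these libraries. In bulk RNA of this kind a lower level can reflect fewer cells that express a gene or less RNA in each of them, and these cannot be told apart.

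LPS, a cell wall component of Gram-negative bacteria, is bound by CD14 and handed to TLR4 and its co-receptor LY96. TLR4 signals through the adaptor MYD88 to NF-kB and the MAP kinases, which switch on cytokines, chemokines and their own inhibitors within hours, and through the adaptor TICAM1 to IRF3 and interferon beta, whose secretion then induces the interferon-stimulated genes. In monocytes this programme is accompanied by changes of metabolism, of surface receptors and of stress pathways.

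Libraries were made by 3′ sequencing, in which a read comes from the end of a transcript. The 6 libraries held 8206023 to 22344279 counts, and 20680 to 23434 genes had at least 1 count in a library. LPS replicate 4 was the shallowest library and had the highest share of counts from mitochondrial genes, 5.20% against 3.28% to 3.47% in the unstimulated libraries and 3.72% and 4.36% in LPS replicates 5 and 6. Levels are counts in each 1000000 of a library after scaling by TMM (CPM), and a count of 3 corresponds to 0.133 to 0.378 CPM. Of 20 monocytic markers 20 were tested, with summed levels of 2278 to 2610 CPM without and 2233 to 2510 CPM with LPS. S100A8 (log2 fold change 1.20) and CD4 (0.51) rose and CD14 fell (−1.53), and the other 17 passed no threshold. S100A8 was not called without LPS replicate 4 or 5, without unstimulated replicate 2 or 3, with edgeR on the 6 libraries, with DESeq2 on the 6 libraries or without the filter (adjusted p 0.0556 to 0.0966). CD4 was not called without LPS replicate 4, without unstimulated replicate 1, 2 or 3, with edgeR on the 6 libraries or with library totals alone (adjusted p 0.0581 to 0.403). The serine protease genes CTSG, ELANE and PRTN3 were measured at means of 1277, 249 and 114 CPM without LPS. Markers of T and NK cells (4 of 12 tested), B cells (3 of 7), erythroid cells and platelets (1 of 12) and epithelial or stromal cells (3 of 10) gave no call, with summed levels of 11.9 to 19.3, 36.5 to 48.5, 0.62 to 1.54 and 1.39 to 5.38 CPM, and CD3E, CD8B, HBB and KRT19 had 0 counts in the 6 libraries. Nearly all of the B cell sum was PAX5, at 38.6 CPM without and 42.6 CPM with LPS.

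LPS changed 2869 genes in SCR, which is 17.2% of the genes tested (edgeR quasi-likelihood test, adjusted p under 0.05). The numbers were almost even, with 1441 genes higher (8.64%) and 1428 lower (8.56%). These shares are the background against which the gene lists below are read. Scaling by library totals alone gave 1215 higher and 1843 lower genes. The 3 LPS libraries lay wholly above or wholly below the 3 unstimulated ones for 6213 genes (37.3%), among them 2833 of the 2869. Most changes were small, as the median log2 fold change was 0.73 among the higher and −0.67 among the lower genes. A change of more than 2 on the log2 scale was reached by 117 higher and 184 lower genes. Together the higher genes took 11.9% to 13.1% of all counts without LPS and 18.4% to 20.6% with LPS, and the lower genes 13.4% to 14.5% and 8.99% to 9.74%. Without LPS replicate 4 the number of called genes was 1789, and without unstimulated replicate 1 it was 1875.

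**Figure D1:**
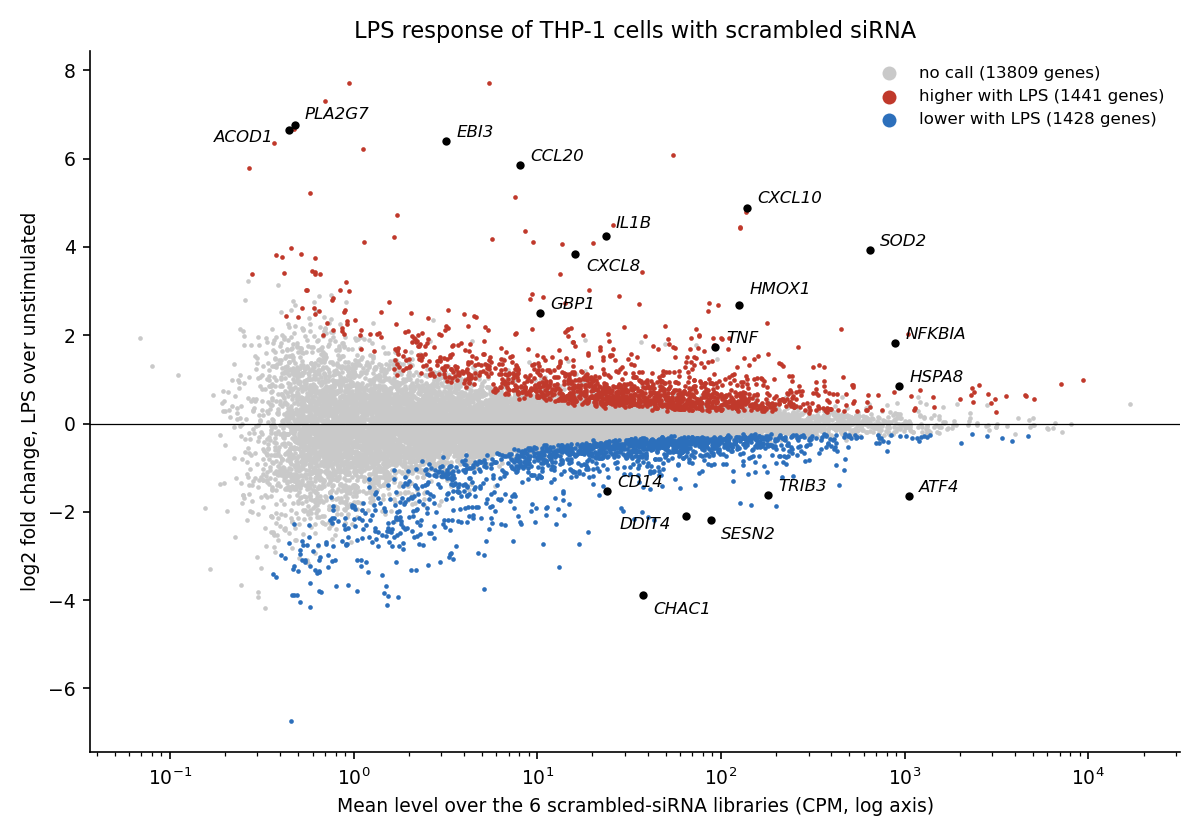
Each point is 1 of the 16678 genes tested, with its mean level over the 6 SCR libraries (CPM, log axis) on the x axis and the log2 fold change of LPS over unstimulated cells on the y axis. Red points rose and blue points fell at an adjusted p under 0.05, grey points passed no threshold, and black points are named genes. SOD2, CXCL10 and NFKBIA stand high among abundant transcripts, CHAC1 is the lowest of the genes named, and most genes far below 0 lie at low levels.

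The direction of the calls differed by gene group. Of the chemokines 12 of 15 rose and 0 fell, of the NF-kB subunits and inhibitors 9 of 11 rose and 0 fell, and of the integrated stress response and amino acid genes 0 of 55 rose and 45 fell. The genes of the ribosome gave 0 higher and 5 lower of 78. Those of DNA replication gave 4 higher and 3 lower of 53, close to the background share in both directions.

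**Figure D2:**
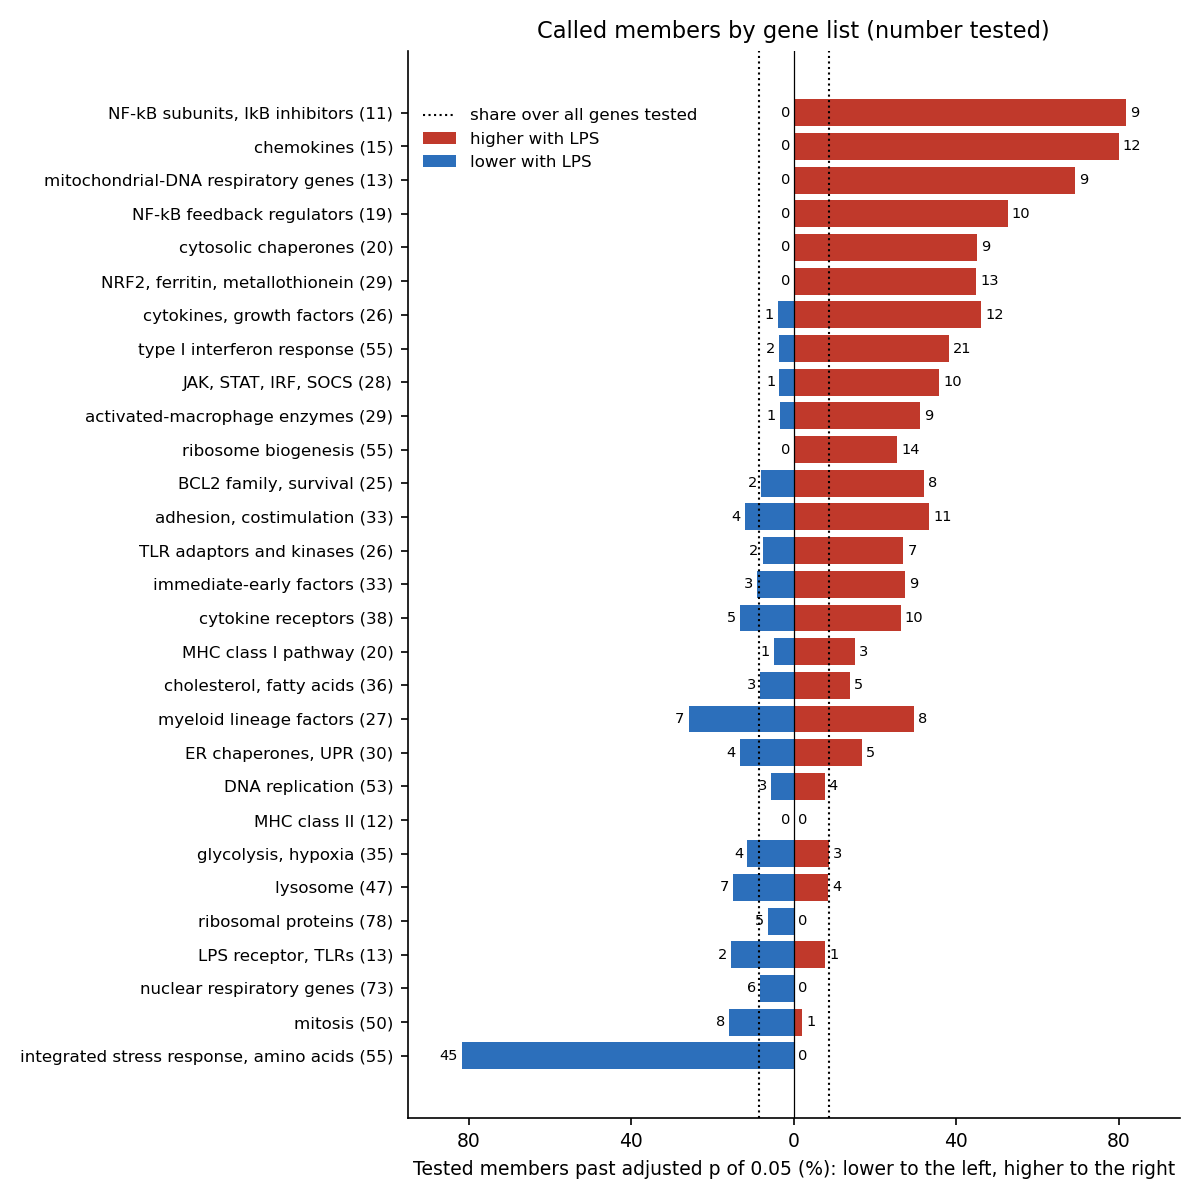
Each bar gives the share of a list's tested members that rose (red, to the right) or fell (blue, to the left) with LPS at an adjusted p under 0.05, in percent, with the number of called members at its end and the number tested in brackets. Dotted lines mark the share over all genes tested, 8.64% higher and 8.56% lower. Chemokines and the NF-kB genes reach furthest to the right, and the integrated stress response reaches furthest to the left.

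Among the cytokine genes, those of IL-1 beta and TNF rose. Of 36 cytokines and growth factors 26 were tested, and 12 rose and 1, GDF15, fell (median log2 fold change 0.83, against −0.03 over all genes tested). IL1B (ENSG00000125538, GRCh37 chromosome 2, 113587328 to 113594393), the main secreted pyrogen of the monocyte, was measured at 1.95, 1.92 and 3.31 CPM in the 3 unstimulated and 43.2, 56.6 and 34.4 CPM in the 3 LPS libraries. This is an increase of 4.24 on the log2 scale (SE 0.26, adjusted p 2.65e-10), and every LPS library was far above every unstimulated one. TNF (ENSG00000232810, GRCh37 chromosome 6, 31543342 to 31546113), the central cytokine of acute inflammation, was already measured at 46.8, 47.8 and 35.1 CPM without LPS and rose to 129, 145 and 157 CPM (log2 fold change 1.73, SE 0.15, adjusted p 3.25e-08). EBI3, the subunit shared by the heterodimeric cytokines IL-27 and IL-35, had 0, 3 and 0 counts without LPS and 6.42, 6.87 and 5.66 CPM with it, the lowest LPS library being far above the highest unstimulated one (adjusted p 2.19e-06). Over the summed counts this is a ratio of 97.7 (95% counting interval 33.0 to 477). INHBA, a subunit of activin A, had 0, 5 and 0 counts without and 24, 60 and 39 counts with LPS (4.72; 8.54 without unstimulated replicate 2, whose counts were the only ones of its group). IL23A, a subunit of IL-23, rose by 1.57 and LTB, which forms the membrane lymphotoxin, by 1.46. The receptor antagonist IL1RN rose from 78.1 to 147 CPM (0.92) and the macrophage growth factor CSF1 from 13.6 to 24.5 CPM (0.84). IL1A, also a pyrogen, remained near the floor, at 0, 2 and 0 counts without and 7, 6 and 18 counts with LPS (adjusted p 0.0288; ratio 19.8, 95% counting interval 5.03 to 170.4). Its fitted log2 fold change was 3.97, and 6.59 without unstimulated replicate 2, whose counts were the only ones of its group. Interferon beta, IFNB1, was measured at 0.710, 1.00 and 0.846 CPM without and 1.89, 4.79 and 0.990 CPM with LPS, and its log2 fold change of 1.61 did not pass the threshold (adjusted p 0.149). GDF15, a stress-induced member of the TGF-beta family, fell from 55.3 to 20.1 CPM (−1.45). CSF1 was not called with any of the 6 libraries left out or with library totals alone (adjusted p 0.0503 to 0.196). IL1A was not called without LPS replicate 4 or 6 or without unstimulated replicate 1 or 3 (adjusted p 0.0705 to 0.142).

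The filter left out IL6, with counts of 0, 0 and 0 without LPS and 0, 13 and 5 with it, and IL12B, with 0, 0 and 0 and 1, 15 and 5. For both genes LPS replicate 4, the shallowest library, had the lowest count of the LPS group. These genes, which are induced by LPS in many monocytes, are therefore given as counts only. CXCL9 was listed at 0 in the unstimulated libraries and at 4, 7 and 14 counts in the LPS libraries. Genes that monocytic cells use throughout, such as RAC2 and CEBPA, also stood at or near 0 in this table, so that a gene listed at 0 cannot be read as not expressed.

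Chemokine genes rose as a group. Of 28 listed, 15 were tested, 12 rose and 0 fell, with a median log2 fold change of 4.11. CCL3 and CCL4 could not be matched by symbol, so that no value is given under these names and the counts of chemokines do not include them. CXCL10 (ENSG00000169245, GRCh37 chromosome 4, 76942271 to 76944650), the interferon-inducible attractant of T cells, had 7.72, 10.8 and 8.92 CPM without LPS and 295, 254 and 253 CPM with LPS (log2 fold change 4.89, SE 0.25, adjusted p 9.47e-12). CCL2, the main attractant of monocytes, rose from 22.9, 21.5 and 23.1 to 174, 158 and 120.4 CPM (2.74, SE 0.20, adjusted p 3.66e-09), which is 6.67-fold. The groups of both genes were far apart, and their LPS libraries lay close together. CXCL8, the attractant of neutrophils, was measured at 2.13, 2.46 and 1.77 CPM without and 20.7, 46.9 and 23.0 CPM with LPS (3.84, SE 0.44, adjusted p 2.52e-06). Its relatives CXCL1, CXCL2 and CXCL3, which use the same receptor, rose by 4.11, 4.17 and 4.23. CCL20, which recruits cells through CCR6, spread most among the LPS libraries, at 13.3, 28.5 and 5.73 CPM, all above the 0.0888, 0.365 and 0.461 CPM of the unstimulated ones (5.86, SE 0.77, adjusted p 1.53e-05). CXCL11, like CXCL10 a ligand of CXCR3, rose by 3.39 and CCL8, a monocyte attractant, by 5.13. CCL4L1 and CCL4L2, near-identical copies whose reads could not be told apart, both rose by 4.44, and CCL3L1, which has such copies too, by 1.98. The counts of chemokines hold CCL4L1 and CCL4L2 as separate members. CCL19, which guides cells that carry CCR7, lay outside the list and was chosen by the size of its change. It had 0 counts in the 3 unstimulated libraries and 14, 27 and 29 in the LPS libraries, at least 29.4-fold higher when a floor of 3 counts over the unstimulated group is used. The uncalled chemokines were CCL13 (1.19), CXCL16 (−0.13) and CCL22 (−0.19).

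**Figure D3:**
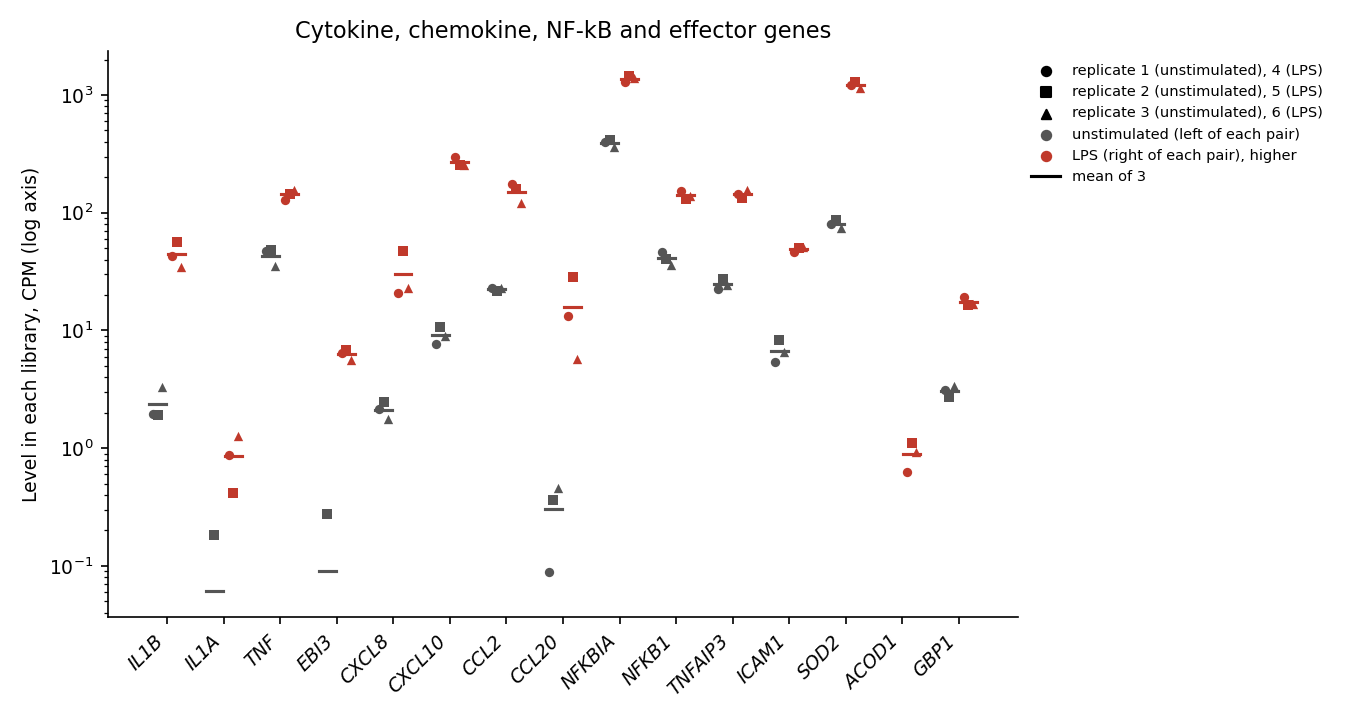
Each point is the level of a gene in 1 library (CPM, log axis), with the 3 unstimulated libraries in grey on the left and the 3 LPS libraries in colour on the right of each pair, and lines at the mean of 3. Libraries with 0 counts are not drawn but enter the mean. For all 15 genes the LPS libraries lie above the unstimulated ones, from IL1A near the floor to SOD2 and NFKBIA above 1000 CPM.

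NF-kB is held in the cytoplasm by IkB proteins, whose genes it induces once it is released. Of 11 genes of NF-kB subunits and IkB proteins 9 rose and 0 fell (median log2 fold change 1.10). NFKBIA (ENSG00000100906, GRCh37 chromosome 14, 35870285 to 35873955), which encodes IkB alpha, had 396, 413 and 359 CPM without LPS and 1299, 1436 and 1406 CPM with LPS (log2 fold change 1.83, SE 0.09, adjusted p 8.48e-12). NFKB1, the precursor of the p50 subunit, rose from 46.2, 40.2 and 36.3 to 153, 132 and 139.8 CPM (1.79, SE 0.11). In both the libraries of each group were close together and the groups well apart. The atypical inhibitors NFKBIZ and BCL3 rose by 2.13 and 1.91, and the subunits REL, NFKB2 and RELB by 1.72, 1.10 and 0.71. RELA, the main activating subunit, was measured at 120.0 ± 5.00 CPM without and 117 ± 12.3 CPM with LPS (SD, n = 3 each; log2 fold change −0.03, adjusted p 0.892). A list of regulators of NF-kB signalling gave 10 higher and 0 lower of 19 tested (median 0.35). It holds inhibitors such as TNFAIP3 but also BIRC2, BIRC3, TRAF1, TRAF2 and PELI1, so that its count is not one of inhibitors alone. TNFAIP3, the ubiquitin-editing enzyme A20, rose from 22.6, 27.1 and 24.5 to 145, 134 and 155 CPM (2.55, SE 0.16, adjusted p 3.68e-10). ZC3H12A, the endonuclease Regnase-1, which destroys cytokine mRNAs, rose from 30.7, 23.0 and 24.4 to 172, 156 and 176 CPM (2.68, SE 0.13). Of the further regulators, BIRC3 rose by 1.86, TRAF1 by 1.73 and TNIP1, a partner of A20, by 1.52. TRAFD1 belongs to this list too and did not pass, at 26.8, 20.1 and 24.2 CPM without and 21.9, 27.4 and 18.7 CPM with LPS (log2 fold change −0.07, SE 0.22, adjusted p 0.872).

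Promoters of the induced genes were searched for the kB motif, the sequence that NF-kB binds. In RefSeq promoters of the GRCh38.p14 build, which run from 250 bases before to 50 bases after the start, the motif was searched by its consensus of 10 bases on both strands. It was present in 6.49% of the 10724 promoters matched to genes tested, in 10.4% of those of the higher genes, in 12 of 67 of those of genes that rose by more than 2 on the log2 scale and in 7.45% of those of the lower genes. Of the matched chemokine promoters 7 of 10 held it, and of the NF-kB and IkB promoters 5 of 9. Among the cytokine promoters 5 of 20 held it, and among those of the regulators of NF-kB signalling listed above 3 of 17. TNF, IL1B and CXCL8, which rose, had 0 matches in this window, and CCL22, which was not called, had 1. The windows below show the match nearest to the start in 6 genes described above, 5′ to 3′ in the direction of the gene, with the motif in capitals. They were chosen among genes with a match, to set 3 chemokines beside 3 genes of the pathway itself. A match is a description of the letters and not a measured binding site.
CXCL10, chr4:76023580-76023649, minus strand, first base of the match 122 bases before the start: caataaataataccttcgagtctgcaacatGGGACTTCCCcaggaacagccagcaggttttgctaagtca
CCL20, chr2:227813733-227813802, plus strand, first base of the match 79 bases before the start: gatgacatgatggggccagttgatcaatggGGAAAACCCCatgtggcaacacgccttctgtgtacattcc
CXCL1, chr4:73869285-73869354, plus strand, first base of the match 78 bases before the start: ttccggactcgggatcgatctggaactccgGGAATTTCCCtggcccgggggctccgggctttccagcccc
NFKBIA, chr14:35404791-35404860, minus strand, first base of the match 81 bases before the start: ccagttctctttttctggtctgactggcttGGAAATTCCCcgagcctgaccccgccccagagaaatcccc
TNFAIP3, chr6:137867174-137867243, plus strand, first base of the match 55 bases before the start: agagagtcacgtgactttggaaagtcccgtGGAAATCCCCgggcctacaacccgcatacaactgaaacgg
NFKB1, chr4:102501280-102501349, plus strand, first base of the match 49 bases before the start: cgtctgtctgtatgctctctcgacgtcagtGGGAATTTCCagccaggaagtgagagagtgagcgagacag

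The genes of the LPS receptor complex gave no higher call. Of 13 genes of the LPS receptor and the Toll-like receptors 1 rose and 2 fell (median log2 fold change −0.04). CD14 (ENSG00000170458, GRCh37 chromosome 5, 140011313 to 140013285) fell from 43.0, 30.7 and 32.6 to 12.1, 13.0 and 11.8 CPM (−1.53, SE 0.21, adjusted p 2.31e-05), which is a decrease of 65.3%. TLR4 itself had 10.0, 11.7 and 9.15 CPM without LPS and 5.04, 8.19 and 5.16 CPM with it (−0.73, SE 0.23, adjusted p 0.0317). For both genes every LPS library lay below every unstimulated one. TLR7, an endosomal sensor of RNA, rose from 1.93 to 6.16 CPM (1.67), and TLR2, which binds bacterial lipoproteins, passed no threshold at 0.41. Of 26 adaptors and kinases downstream of the receptors 7 rose and 2 fell. The kinases IRAK2 and MAP3K8 rose by 2.39 and 1.48, and the ubiquitin ligase PELI1 by 1.07. The inhibitor TOLLIP fell (−0.37), as did the kinase gene IKBKB (−0.39), and the adaptors MYD88 and TICAM1 passed no threshold (0.26 and 0.14). The 7 higher members were 4 without LPS replicate 5 or without unstimulated replicate 1, and the lower members were 1 when LPS replicate 4 or 6 or unstimulated replicate 1 or 2 was left out. TLR4 was not called without LPS replicate 4 or 6 or without unstimulated replicate 1 or 2 (adjusted p 0.0734 to 0.141). TOLLIP was not called without LPS replicate 4 or 6 or without unstimulated replicate 1 or 2 (adjusted p 0.0597 to 0.134).

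Receptors for cytokines and chemoattractants moved in both directions, with 10 higher and 5 lower of 38 tested. IL18R1, a receptor chain for the cytokine IL-18, had 0 counts in each unstimulated library and 12, 5 and 14 counts in the LPS libraries, at least 14.7-fold higher over the floor of 3 counts. CD40, which receives signals from T cells, rose from 37.5 to 144 CPM (1.94), IL7R by 1.29 and the interferon gamma receptor chain IFNGR2 by 0.96. The genes that fell were receptors for chemoattractants and a decoy: C5AR1, for the complement fragment C5a (−1.71), CX3CR1, for fractalkine (−1.08), CXCR4 (−0.63), CCR2, the receptor of CCL2 (−0.55), and IL1R2, which captures IL-1 without signalling (−1.97). CX3CR1 had 64.0, 49.0 and 62.8 CPM without and 28.8, 27.1 and 27.5 CPM with LPS, and no library of a group reached those of the other.

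Interferon-stimulated genes rose in part. Of 55 tested 21 rose and 2 fell, and the median log2 fold change was 0.35. The guanylate-binding proteins GBP1, GBP2 and GBP5, GTPases of cell-autonomous defence, changed most. GBP1 (ENSG00000117228, GRCh37 chromosome 1, 89517565 to 89531043) had 3.11, 2.74 and 3.38 CPM without and 19.3, 16.5 and 16.8 CPM with LPS (2.50, SE 0.24, adjusted p 1.42e-07), GBP2 rose by 2.83 and GBP5 by 2.17. The antiviral genes IFIT1, IFIT2 and IFIT3 rose by 0.48, 0.66 and 0.69, OAS3, which makes the activator of RNase L, by 0.70, and the RNA sensor kinase EIF2AK2 by 0.58. ISG15 (0.29) and MX2 (0.19) did not pass the threshold. IFI35 fell from 182 to 108 CPM (−0.75) and LGALS3BP by 0.35. Several of these genes were already abundant without LPS, such as IFI6 at 1685, 1682 and 1492 CPM. Of the kinases, transcription factors and inhibitors of this pathway (JAK, STAT, IRF and SOCS genes) 10 of 28 rose and 1 fell. SOCS3, the feedback inhibitor of cytokine receptors, rose from 1.21 to 6.80 CPM (2.48), SOCS1 by 1.17, STAT5A by 1.44, STAT4 by 1.92 and STAT3 by 1.05. The interferon response element, searched as GAAANNGAA on both strands, was found in 28 of 42 matched promoters of the interferon list (66.7%) and in 6.72% of those of all genes tested. The list was written from general knowledge, so that its share does not describe the response to LPS. Among the matched promoters of all higher genes 9.1% held the element, and among those of all lower genes 5.8%. LGALS3BP was not called without LPS replicate 4, 5 or 6, without unstimulated replicate 1 or 3, with RLE size factors or without the filter (adjusted p 0.0543 to 0.208). IFI6 was not called without LPS replicate 4 (adjusted p 0.0662). SOCS1 was not called without LPS replicate 4 or 5 or without unstimulated replicate 1 or 3 (adjusted p 0.0593 to 0.106).

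Surface molecules of cell contact gave 11 higher and 4 lower of 33. ICAM1, the ligand of leukocyte integrins, had 5.41, 8.21 and 6.61 CPM without and 46.0, 50.2 and 51.0 CPM with LPS (2.89, SE 0.21, adjusted p 3.71e-09), and its groups were well separated. The costimulatory gene CD80 rose by 2.75, the checkpoint ligand CD274 by 2.11, SLAMF7 by 2.72 and the maturation marker CD83 by 1.51. CD86, the other ligand of CD28, was near the floor at means of 0.816 and 0.401 CPM and passed no threshold (−1.02). SELPLG, the ligand of P-selectin (−1.07), ADGRE5 (−0.86) and the integrin chains ITGAL (−0.42) and ITGB2 (−0.32) fell. The lower members were 2 without LPS replicate 4 or without unstimulated replicate 1. Of 20 genes of MHC class I presentation 3 rose (PDIA3, TAP1 and CALR, by 0.70, 0.55 and 0.31) and 1 fell (NLRC5, −0.42), and of 12 class II genes 0 were called, with a median of −0.10. CD80 was not called without LPS replicate 4 or without unstimulated replicate 1 or 2 (adjusted p 0.0538 to 0.0855). ITGAL was not called without LPS replicate 4 or 5, without unstimulated replicate 1 or 2 or without the filter (adjusted p 0.0598 to 0.144). ITGB2 was not called without LPS replicate 4 or without unstimulated replicate 1 (adjusted p 0.116 to 0.152). CALR was not called without LPS replicate 4 or 6, without unstimulated replicate 1 or 3 or with library totals alone (adjusted p 0.0613 to 0.156). NLRC5 was not called without LPS replicate 4, 5 or 6 or without unstimulated replicate 1 or 2 (adjusted p 0.0519 to 0.176).

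Among enzymes of the activated macrophage 9 of 29 rose and 1 fell. SOD2 (ENSG00000112096), the mitochondrial superoxide dismutase, had the smallest adjusted p of all genes. It was measured at 79.7, 86.2 and 74.5 CPM without and 1212, 1282 and 1146 CPM with LPS, a difference of 3.92 on the log2 scale (SE 0.11, adjusted p 1.12e-15) or 15.1-fold. ACOD1, which makes itaconate, had 0 counts in each unstimulated library and 5, 16 and 13 counts with LPS (at least 13.7-fold higher over the floor). PLA2G7, which inactivates platelet-activating factor, had 0 and 5, 22 and 10 counts (at least 14.8-fold). PLA2G7 was not called in WT (log2 fold change 1.75) or in KD (0.77), and its differences from SCR passed no threshold. HMOX1, the haem-degrading enzyme, rose from 27.7, 45.3 and 29.2 to 189, 225 and 239.6 CPM (2.69, SE 0.17), GCH1, which starts tetrahydrobiopterin synthesis, by 1.76, KYNU of tryptophan catabolism by 1.73 and the sugar transporter SLC2A6 by 2.70. PTGS2, the inducible cyclooxygenase, had 3.68, 3.38 and 4.46 CPM without and 4.16, 6.52 and 6.01 CPM with LPS and passed no threshold (0.55, adjusted p 0.225). SLC2A3, a glucose transporter, fell by 0.68. In a list of 25 genes of matrix and coagulation 6 rose and 3 fell. TNFAIP6 (ENSG00000123610, GRCh37 chromosome 2, 152214106 to 152236560), a secreted hyaluronan-binding protein, had 1.15, 2.01 and 1.85 CPM without and 130.5, 101 and 92.6 CPM with LPS (6.08, SE 0.21, adjusted p 2.77e-14). The pattern-recognition protein PTX3 rose by 1.99 and tissue factor, F3, by 1.28, whereas the protease genes ADAMTS4 (−1.91) and PLAT (−1.90) and the inhibitor TIMP2 (−0.47) fell. The 6 higher members were 3 without unstimulated replicate 1. PLA2G7 was not called without unstimulated replicate 1 (adjusted p 0.0584). PLAT was not called without LPS replicate 4 or 6, without unstimulated replicate 2 or 3 or with DESeq2 on the 6 libraries (adjusted p 0.0613 to 0.171).

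Of 33 immediate-early transcription factors 9 were higher and 3 lower with LPS. IER3, a target of NF-kB that limits cell death, rose from 6.38 to 68.5 CPM (3.42), NR4A3 by 3.02, JUNB by 0.98 and JUN by 0.72. EGR1 and ATF3 passed no threshold (0.05 and 0.13). In WT both were called higher (0.92 and 1.11), and in KD neither was called (−0.17 and 0.45). The differences of WT and KD from SCR passed no threshold for either gene. FOSL2 fell from 93.1, 85.8 and 84.7 to 24.6, 38.4 and 32.0 CPM (−1.46), CEBPB by 0.63 and BATF3 by 0.78. Without LPS replicate 5 the higher members of this list were 5. Of 14 MAP kinase phosphatases and other regulators of these kinases 5 rose and 0 fell, led by DUSP2 (1.09) and DUSP6 (0.91). The 5 included the regulators GADD45A (0.87) and GADD45B (0.51). Of 15 genes of mRNA decay 4 rose, and RC3H2 fell (−0.30). Those that rose included ZC3H12C, a relative of ZC3H12A (1.09), and BTG2 (1.39), while ZFP36, which targets AU-rich transcripts, did not pass (0.42). Of 25 genes of survival and the BCL2 family 8 rose and 2 fell. BCL2A1, an anti-apoptotic target of NF-kB, rose by 2.07, the survival kinases PIM1 and PIM2 by 1.52 and 1.33, and CFLAR, which restrains caspase-8, by 1.01. BBC3, the pro-apoptotic protein PUMA, fell by 0.93 and AKT2 by 0.34. NR4A3 was not called without LPS replicate 5 or 6 or without unstimulated replicate 1 or 2 (adjusted p 0.0755 to 0.141). AKT2 was not called with any of the 6 libraries left out (adjusted p 0.0554 to 0.127).

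The genes of the integrated stress response fell together. In this pathway phosphorylation of the initiation factor eIF2 lowers translation at large but favours that of ATF4, a transcription factor that induces amino acid synthesis, amino acid transporters, tRNA synthetases and regulators of stress. Of 55 tested genes of this list 45 fell and 0 rose, with a median log2 fold change of −0.77, against −0.03 over all genes. When each library was left out in turn 41 to 44 members fell. WT and KD cells, measured in their own libraries, gave 46 lower members each, and the shares of all genes called lower in them are not given here.

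CHAC1 (ENSG00000128965, GRCh37 chromosome 15, 41245160 to 41248710), which degrades glutathione and is a sensitive target of ATF4, had 71.7, 72.5 and 67.1 CPM without LPS and 4.91, 5.41 and 4.03 CPM with LPS. This is a decrease of 93.2% (log2 fold change −3.88, SE 0.20, adjusted p 9.21e-12). ATF4 (ENSG00000128272, GRCh37 chromosome 22, 39915700 to 39918688) itself fell from 1646, 1571 and 1581 to 447, 526 and 562 CPM (−1.64, SE 0.10, adjusted p 1.54e-10). Its processed pseudogenes ATF4P3 and ATF4P4, which share sequence with it, gave −1.80 and −1.85, and reads may be shared between the 3. Of the regulators that ATF4 induces, SESN2 and DDIT4, both inhibitors of mTORC1, changed from 131, 161 and 140.2 to 31.5, 32.1 and 31.2 CPM (−2.19, SE 0.14) and from 104, 99.5 and 109.9 to 26.7, 22.9 and 23.9 CPM (−2.10, SE 0.12). The pseudokinase TRIB3 had 275, 267 and 275 CPM without and 76.6, 97.9 and 90.6 CPM with LPS (−1.62), and the pro-apoptotic factor DDIT3, also called CHOP, 93.3, 117 and 103 and 44.2, 53.1 and 47.4 CPM (−1.11). In all of these the libraries of a group were close together, and the groups did not overlap.

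The decrease covered the branches of the list. Of the enzymes of serine and glycine synthesis, PHGDH, PSAT1, PSPH and SHMT2 fell, by 0.56, 1.06, 1.99 and 0.52 on the log2 scale, and the mitochondrial folate enzyme MTHFD2 by 0.83. ASNS, which makes asparagine, had 321 ± 3.86 CPM without and 195 ± 10.1 CPM with LPS (SD, n = 3 each; −0.71). Among the transporters, SLC38A2 fell from 333, 304 and 297 to 87.0, 87.1 and 83.8 CPM (−1.86), SLC7A5 and SLC3A2, which form the transporter of large neutral amino acids, by 1.19 and 0.66, and the glycine transporter SLC6A9 by 1.89. Among the tRNA synthetases, AARS1, CARS1 and GARS1 fell by 0.93, 0.97 and 0.89, while LARS1 (0.15), EPRS1 (−0.10) and IARS1 (−0.27) passed no threshold. The cystine transporter SLC7A11, which ATF4 shares with NRF2 as a target, had 83.8, 74.5 and 84.5 CPM without and 87.4, 123 and 82.7 CPM with LPS and was not called (0.27, adjusted p 0.306). PPP1R15A, the phosphatase subunit that ends the response, was not called either (0.32, adjusted p 0.143) and was the only member called higher in a fit to the 6 SCR libraries alone.

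**Figure D4:**
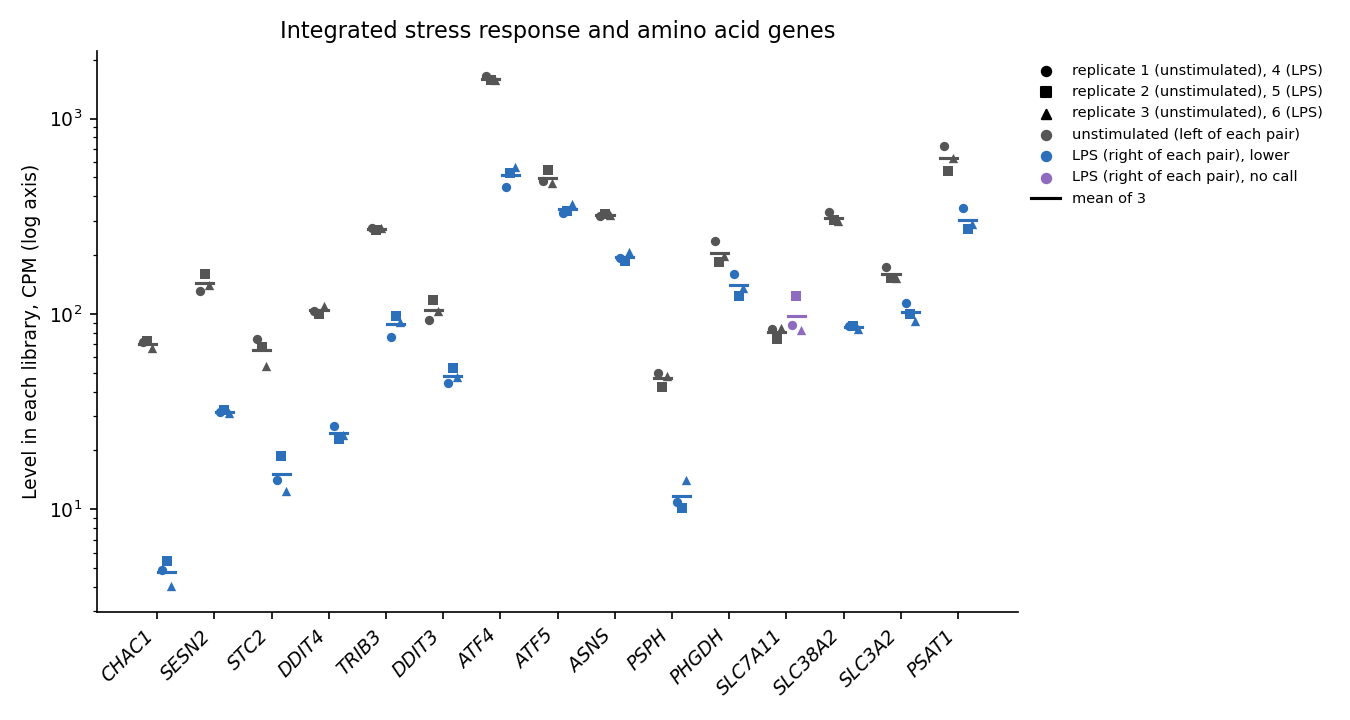
Each point is the level of a gene in 1 library (CPM, log axis), with the 3 unstimulated libraries in grey on the left and the 3 LPS libraries in colour on the right of each pair, and lines at the mean of 3. Blue LPS points belong to genes that fell and purple ones to SLC7A11, which was not called. CHAC1 shows the widest gap, from about 70.4 to 4.79 CPM, and the groups of ATF4, SESN2 and DDIT4 are well apart.

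ATF4 and its partners bind a composite element, searched here as TGATGNAA on both strands. It was found in 14 of 45 matched promoters of the integrated stress response list (31.1%), in 4.04% of those of all lower genes and in 1.78% of those of all genes tested, in the same windows of 250 bases before to 50 bases after the start. The matches of 3 genes that fell are printed from RefSeq on the GRCh38.p14 build, 5′ to 3′ in the direction of the gene, with the element in capitals, to show how it reads on either strand. As before, a match describes letters only.
CHAC1, chr15:40953232-40953299, plus strand, first base of the match 209 bases before the start: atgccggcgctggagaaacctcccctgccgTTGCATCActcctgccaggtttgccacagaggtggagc
ASNS, chr7:97872439-97872506, minus strand, first base of the match 68 bases before the start: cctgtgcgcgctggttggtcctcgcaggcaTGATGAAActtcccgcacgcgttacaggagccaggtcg
AARS1, chr16:70289656-70289723, minus strand, first base of the match 187 bases before the start: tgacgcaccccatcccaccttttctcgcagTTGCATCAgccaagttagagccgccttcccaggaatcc

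Other stress pathways differed in the direction of their calls. Of 30 genes of the endoplasmic reticulum and its unfolded protein response 5 rose and 4 fell. The chaperones PDIA3 and DNAJC3 rose by 0.70 and 0.58, the sensor kinase ERN1 fell by 1.05 (by 1.70 without LPS replicate 5), HERPUD1 by 0.68 and XBP1 by 0.37, and HSPA5, the main chaperone of the lumen, passed no threshold (0.12). Without unstimulated replicate 1 the counts were 2 higher and 2 lower. Of 20 cytosolic and mitochondrial chaperones 9 rose and 0 fell. HSP90AA1 had 1716, 1714 and 1648 CPM without and 3159, 2647 and 3014 CPM with LPS (0.80, SE 0.08, adjusted p 1.79e-07), HSPA8 rose by 0.85, HSPH1 by 1.07 and HSPA1B by 1.51, the last sharing reads with its near-identical copy HSPA1A (0.64). Of 29 genes of NRF2, ferritin and metallothioneins 13 rose and 0 fell. They included GCLM of glutathione synthesis, which rose from 90.2 to 270.4 CPM (1.58), TXNRD1 (1.29), NFE2L2, which encodes NRF2 (1.29), the metal-responsive factor MTF1 (1.64) and the ferritin heavy chain FTH1, from 3320.1, 3737 and 3454 to 5134, 5793 and 5598 CPM (0.65). The ferritin light chain FTL was not called (0.09). Among 12 genes of the phagocyte oxidase and of peroxide removal, CYBB, its catalytic subunit, rose by 1.03 together with SOD2, and NCF4 (−0.41) and GPX1 (−0.26) fell. ERN1 was not called without LPS replicate 4 or 6, without unstimulated replicate 1, 2 or 3 or with DESeq2 (adjusted p 0.0592 to 0.180). HERPUD1 was not called without LPS replicate 4 or 6 or without unstimulated replicate 1 or 3 (adjusted p 0.103 to 0.185). HSPA1A was not called without LPS replicate 4 or 5 or without unstimulated replicate 2 or 3 (adjusted p 0.0592 to 0.103). GPX1 was not called without LPS replicate 4, 5 or 6, without unstimulated replicate 1 or 2 or without the filter (adjusted p 0.0510 to 0.135).

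Respiratory chain genes lie in mitochondrial and in nuclear DNA. Of 13 mitochondrial genes 9 rose and 0 fell (median log2 fold change 0.55), and of 73 nuclear ones 0 rose and 6 fell (median −0.05). The 6 are 8.22% of the nuclear list, close to the 8.56% of all genes tested, and the difference between both lists was not tested. The mitochondrial result rested on few libraries, as 3 members were called without LPS replicate 4 and 5 without unstimulated replicate 2 or without unstimulated replicate 3. Scaling by library totals gave 8 higher and 1 lower. MT-ATP8, a small subunit of ATP synthase, had 160.3, 181 and 159 CPM without and 1441, 308 and 470.1 CPM with LPS (2.15, SE 0.46, adjusted p 0.00264; 1.23 without LPS replicate 4), with LPS replicate 4 about 3 times as high as any other library. MT-ND2 of complex I rose by 0.88, and MT-CO3 of cytochrome oxidase was not called (−0.19). LPS replicate 4 also had the highest mitochondrial share of all counts (5.20%), and its part in these values was not tested. The nuclear genes lost all 6 calls without LPS replicate 4 or without unstimulated replicate 1, and 3 of them, NDUFA8 (−0.42), NDUFS4 (−0.43) and ATP5F1B (−0.33), are given as examples. NDUFA8 was not called without LPS replicate 4 or 6 or without unstimulated replicate 1 or 3 (adjusted p 0.0656 to 0.161). NDUFS4 was not called without LPS replicate 4 or 6 or without unstimulated replicate 1 (adjusted p 0.111 to 0.249). ATP5F1B was not called without LPS replicate 4, 5 or 6 or without unstimulated replicate 1 or 3 (adjusted p 0.0541 to 0.122).

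The share of called genes varied among the lists of housekeeping, proliferation and metabolism, to be read against the 8.64% higher and 8.56% lower of all genes tested. Of 78 ribosomal protein genes 0 rose and 5 fell, which was 1 without LPS replicate 4 or without unstimulated replicate 1, with a median of −0.02. Of 55 ribosome biogenesis genes 14 rose and 0 fell (median 0.23; 9 higher without LPS replicate 4), such as NOP58 (0.67) and NCL, from 566 to 729 CPM (0.37). The E-box CACGTG, searched as this palindrome, was present in 18 of 48 matched promoters of that list (37.5%) and in 9.96% of those of all genes tested. It was present in 10.8% of those of all higher genes and in 8.8% of those of all lower genes. Mitotic genes gave 1 higher and 8 lower of 50, among them CDC25B (−0.76), PLK1 (−0.51) and AURKA (−0.44), and MKI67 was not called (0.22). The lower members were 5 without LPS replicate 4 and 4 without LPS replicate 5. Of 53 replication genes 4 rose and 3 fell, with the cyclin CCNE2 at 1.39. Lysosomal genes gave 4 higher and 7 lower of 47, the latter 1 without LPS replicate 4 or without unstimulated replicate 1. SQSTM1, the autophagy receptor p62, rose from 300.0 to 620.5 CPM (1.05), and TPP1, a lysosomal peptidase, fell by 0.52. Cholesterol and fatty acid genes gave 5 higher and 3 lower of 36, with the efflux transporter ABCG1 at −1.56, and glycolysis and hypoxia genes 3 higher and 4 lower of 35, with HIF1A at 0.42 and MXI1 at −0.87. In the cholesterol list 2 to 5 members rose when each library was left out in turn, the 2 without unstimulated replicate 2, and in the glycolysis list 2 fell without unstimulated replicate 3. Inflammasome genes gave 2 higher and 3 lower of 15: AIM2, a DNA sensor, rose by 1.56, NLRC4 fell by 1.24 and NLRP3 was not called (−0.34). The 3 lower genes were 1 without unstimulated replicate 1 or without unstimulated replicate 3. NCL was not called without LPS replicate 4 or without unstimulated replicate 1 (adjusted p 0.0552 to 0.0636). HIF1A was not called without LPS replicate 4 or without unstimulated replicate 2 (adjusted p 0.0785 to 0.108).

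Transcription factors of the myeloid lineage moved both ways, with 8 higher and 7 lower of 27. POU2F2, which partners NF-kB in myeloid and B cells, rose from 121 to 406 CPM (1.74). MYB, a factor of immature haematopoietic cells, had 603, 529 and 534 CPM without and 276, 275 and 311 CPM with LPS (−0.95, SE 0.09), and GFI1, a repressor of granulocyte precursors, 332, 295 and 280.1 and 129, 131 and 130.5 CPM (−1.22, SE 0.08). LMO2 fell by 0.73 and SPI1, the master factor of the lineage, passed no threshold (0.08). The 8 higher members were 5 without unstimulated replicate 1.

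Of 28 long non-coding RNAs and hosts of small RNAs 7 rose and 3 fell, the 3 lower calls being lost without LPS replicate 4, LPS replicate 6 or unstimulated replicate 1. Over all 1469 long non-coding RNAs tested 48 were higher (3.27%, against 8.64% of all genes tested) and 119 lower (8.10%, against 8.56%). MIR3142HG, from whose locus miR-146a is made, had 1.38, 1.64 and 1.61 CPM without and 25.9, 25.5 and 25.8 CPM with LPS (4.07, SE 0.40, adjusted p 2.25e-07), and its groups were far apart. MIR155HG, the host of miR-155, had 13.7 ± 2.04 and 21.7 ± 4.47 CPM (SD, n = 3 each; 0.66, SE 0.22, adjusted p 0.0385). LUCAT1 rose by 2.16, NEAT1 by 0.64 and MALAT1, the most abundant of them, from 5661, 6997 and 6137 to 13026, 11911 and 12219 CPM (0.98). The mature miRNAs that come from the first 2 hosts were not measured here. They restrain and prolong TLR signalling and are shown as RefSeq gives them (GRCh38.p14), miR-146a-5p at chr5:160485372-160485393 and miR-155-5p at chr21:25573983-25574006, both on the plus strand, with the seed (bases 2 to 8) in capitals. MIR155HG was not called without LPS replicate 4 or 5, without unstimulated replicate 1, 2 or 3 or with library totals alone (adjusted p 0.0551 to 0.197). NEAT1 was not called without unstimulated replicate 3 (adjusted p 0.0598).
hsa-miR-146a-5p: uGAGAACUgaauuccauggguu
hsa-miR-155-5p: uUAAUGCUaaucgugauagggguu

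Cells with siRNA hold a short duplex RNA, and the machinery and sensors of such RNA were therefore examined. Of 27 genes 6 rose and 2 fell. AGO2, the slicing Argonaute, rose by 0.75, DICER1, which cuts precursor RNAs, by 0.66 and EIF2AK2 by 0.58, while XPO5 (−0.40) and the DNA sensor adaptor STING1 (−0.49) fell. The log2 fold changes in WT and KD were 0.35 and 0.10 for AGO2, 0.23 and 0.11 for DICER1 and 0.06 and −0.09 for XPO5. None of these passed the threshold, and neither did their differences from SCR. EIF2AK2 gave 0.21 in WT, not called, and 0.60 in KD, called, and STING1 −0.43 and −0.53, both called. RIGI was measured at 104 ± 2.36 CPM without and 106 ± 2.83 CPM with LPS (SD, n = 3 each) and was not called. The study named a list of genes tied to TRAFD1 by genetic associations in other blood samples. Of its 34 tested members in SCR, 12 rose and 1 fell with LPS (median 0.46). They included CXCL10, ICAM1, GBP1, GBP2, GBP5 and CD274, given above, and PSTPIP2 (1.40), a regulator of the macrophage cytoskeleton, and BATF2 (1.04), an interferon-inducible factor. TAP1 was called too (0.55). AGO2 was not called without LPS replicate 6 or without unstimulated replicate 1 (adjusted p 0.0542 to 0.0822). XPO5 was not called without unstimulated replicate 1 (adjusted p 0.0964).

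Of the 2869 called genes 350 belonged to a list. Among those outside the lists with the smallest adjusted p, PDGFA, a growth factor of mesenchymal cells, rose by 2.15, HIVEP3, a zinc finger protein that binds kB-like sites, by 1.47, the translation factor EIF5 by 1.34, WTAP of the RNA methylation complex by 1.32 and the calcium pump ATP2B1 by 1.70. The largest log2 fold change of a gene with more than 5 CPM with LPS was that of SHROOM3, an actin-binding protein, with counts of 1, 0 and 1 without and 78, 152 and 171 with LPS (adjusted p 1.54e-10). Its ratio of 256 over the summed counts has a 95% counting interval of 70.3 to 2117. Lower genes outside the lists included KBTBD11 (−1.42), the homeobox factor HLX (−1.40), INHBE (−2.18), PCK2 (−1.08) and TSC22D3, the glucocorticoid-induced leucine zipper (−1.38). INHBE and PCK2 are known targets of ATF4. Over all types of gene, protein-coding genes gave 1158 higher and 1158 lower of 12490 (9.27% each). Processed pseudogenes, whose reads can be shared with their parents, gave 124 higher (8.74%) and 59 lower (4.16%) of 1418. The shares over all genes tested were 8.64% higher and 8.56% lower.

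The genes with the largest decreases were mostly of low level. Of the 184 genes that fell by more than 2 on the log2 scale, 137 had at most 5 CPM without LPS, and 97 of these had 0 counts in LPS replicate 4. Without that library 48 of the 137 were still called, against 43 of the 47 above 5 CPM. The median log2 fold change of the 137 was −2.68 in SCR, −2.30 in SCR without LPS replicate 4, −0.66 in WT and −0.46 in KD, where the first value follows from how they were chosen. SPDYE3, a member of a family of near-identical genes, is an example, with 78, 35 and 27 counts without and 0, 2 and 4 counts with LPS (−4.11, SE 0.63, adjusted p 1.11e-04), and a log2 fold change of −0.13 in WT and −0.28 in KD. The part that the depth of LPS replicate 4 (8206023 counts) has in these values was not tested.

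The response of SCR was compared with those of WT and KD by testing the difference of the LPS responses. These tests share the SCR libraries, so that their outcomes are not independent. Between SCR and KD 0 genes passed the threshold (0%), and DESeq2 called 3. An unadjusted p under 0.05 by edgeR was reached by 1274 of the 16678 genes tested. Without the filter on low counts 132 genes passed. Between SCR and WT 39 genes passed (0.234%), and the log2 fold change in SCR lay below that in WT for 36 of them and above it for 3. In this comparison 1661 genes had an unadjusted p under 0.05 by edgeR. The 39 were 85 with DESeq2, 241 without the filter, 91 without WT unstimulated replicate 2, and 17 to 26 with any other of the 12 libraries left out. The 36 included 29 genes that rose in SCR and 4 that fell. For all 36 the unstimulated mean was higher in SCR than in WT. The mean with LPS was lower in SCR for 24 of the 36. The shares of all genes tested with such differences of level are not given here. These levels enter the test itself and describe it.

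**Figure D5:**
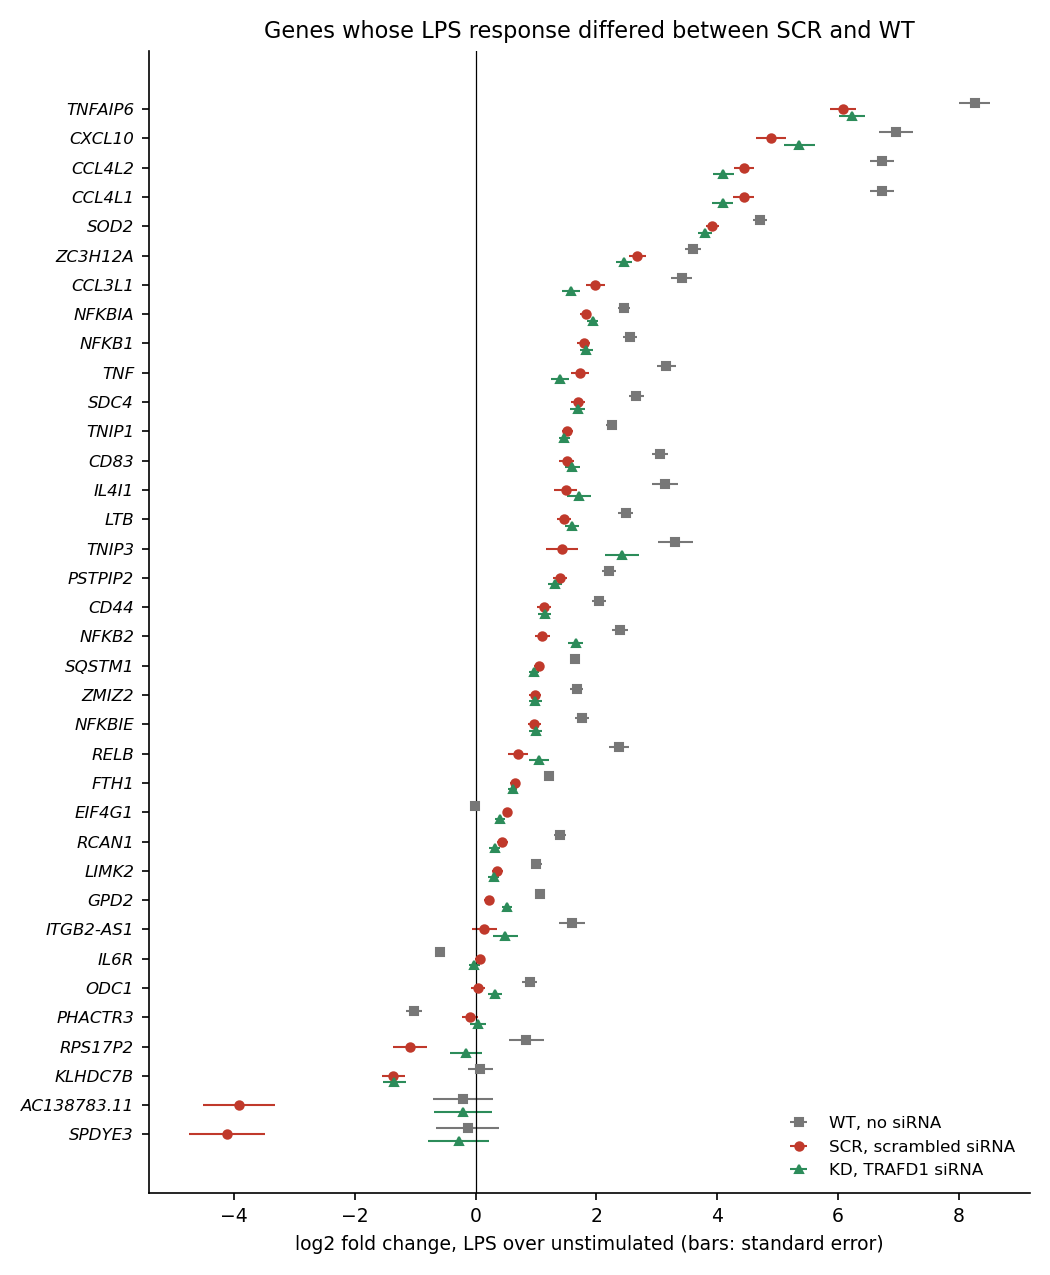
Points are the log2 fold changes of LPS over unstimulated cells for the named genes whose response differed between SCR and WT at an adjusted p under 0.05, with bars for the standard error. Squares are WT, circles SCR and triangles KD, and in most genes the WT square lies to the right of the SCR circle.

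The 39 genes held 5 of the 11 NF-kB subunits and inhibitors, 4 of the 15 chemokines matched by symbol and 3 of the 19 regulators of NF-kB signalling. CCL4L1 and CCL4L2, whose reads could not be told apart, were both among the 4 chemokines. CD83 had 34.7, 35.3 and 32.4 CPM in unstimulated SCR and 88.3, 99.4 and 103 CPM with LPS, against means of 12.3 and 104 CPM in WT, and its log2 fold changes were 1.51 in SCR and 3.06 in WT (difference of SCR from WT −1.55, adjusted p 8.09e-05). TNF gave 43.2 and 144 CPM in SCR and 15.9 and 141 CPM in WT, with log2 fold changes of 1.73, 3.16 and 1.40 in SCR, WT and KD (difference −1.42, adjusted p 0.00210). For both the level with LPS was similar and the level without LPS was higher in SCR. In the same order of SCR, WT and KD, the log2 fold changes were 0.71, 2.37 and 1.05 for RELB, 1.10, 2.39 and 1.65 for NFKB2, and 1.83, 2.46 and 1.94 for NFKBIA. For CXCL10 they were 4.89, 6.96 and 5.36, for TNFAIP6 6.08, 8.26 and 6.23, and for SOD2 3.92, 4.71 and 3.80. KLHDC7B, which was chosen after its values were seen, fell in SCR (−1.36) and gave 0.08 in WT and −1.34 in KD. The 3 genes whose log2 fold change was higher in SCR than in WT were IL6R (0.07, −0.58 and −0.02), EIF4G1 (0.53, −0.01 and 0.40) and PHACTR3 (−0.09, −1.02 and 0.04), named after their values were seen. With each of the 12 libraries of these groups left out in turn, the difference from WT was called in all for CD83, TNF, RELB, NFKB2 and CXCL10. It was lost in 9 of these fits for NFKBIA (adjusted p up to 0.141), in 4 for SOD2 (up to 0.0689) and for TNFAIP6 (up to 0.0837), in 8 for KLHDC7B (up to 0.0976), in 11 for EIF4G1 (up to 0.185), in 9 for PHACTR3 (up to 0.149) and in 6 for IL6R (up to 0.0766). Counts by list differed between the conditions in places, though the differences were not tested. Chemokines rose in 12 of 15 genes in SCR, 13 in WT and 12 in KD. Ribosome biogenesis genes rose in 14 of 55 in SCR, 26 in WT and 6 in KD. The shares of all genes called higher in WT and KD are not given here, so that these counts are not read as traits of the lists.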

How the data were processed

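Per the labels and methods, RNA of THP-1 cells was sequenced with a 3′ kit. The authors removed low-quality reads, adaptors and poly-A tails, aligned reads with HISAT to GRCh37 and counted them with featureCounts over the last 500 bases of each Ensembl gene, and the deposited table holds these raw counts per gene for 18 libraries. Reads shared by near-identical genes may be lost or split, and levels describe transcript ends. Here the counts were tested in edgeR 4.0.16 (R 4.3.3): genes were filtered with filterByExpr by group, libraries were scaled by TMM, and a quasi-likelihood model with the 6 group means was fitted to the 18 libraries, with Benjamini-Hochberg adjustment over 16678 genes and a threshold of 0.05. Standard errors were taken as the size of the log2 fold change over the root of F. The common biological coefficient of variation was 0.17. DESeq2 1.42.0, other scalings, no filter, the 6 SCR libraries alone and the removal of each library served as alternatives. The script was tested on simulated data. Intervals and floors cover counting error only.

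The groups compared and the gene lists were chosen with earlier results of these data known, and lists were written from general knowledge except that of genes tied to TRAFD1, which is the study's. Named genes are list members, up to 4 per list and direction with the smallest adjusted p and without overlap of the groups as a guide, together with members that define a list, the genes with the largest changes, those outside the lists with the smallest adjusted p, and TRAFD1. Other named genes were chosen after their values were seen. A few genes that this rule names are not reported here. Symbols were matched for 55665 of 63677 identifiers, with 39 more, such as SOD2, from the study's own table, for which no coordinates are given.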

Additional observations from a re-analysis of the deposited data

Results flagged for a closer look

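The LPS response of 39 genes differed between SCR and WT by the test of the difference itself (edgeR, adjusted p under 0.05). These are all results flagged because 2 conditions differ in their response, and no group of 3 libraries was examined for outliers. On the log2 scale the response in SCR minus that in WT was −2.29 for CCL4L1, −1.42 for CCL3L1 and −2.07 for CXCL10 among the chemokines, and −1.42 for TNF and −1.02 for LTB among the cytokines. In the NF-kB pathway it was −1.67 for RELB, −1.29 for NFKB2, −0.77 for NFKB1 and −0.63 for NFKBIA, and −0.92 for ZC3H12A and −0.73 for TNIP1, which end its signals. CD83 gave −1.55, TNFAIP6 −2.18, SOD2 −0.79, PSTPIP2 −0.81, SQSTM1 −0.60 and FTH1 −0.56. KLHDC7B gave −1.44 and SPDYE3, a gene of low level with 0 counts in LPS replicate 4 of SCR, −3.98. Identifiers without a matched symbol included ENSG00000129277 at −1.88 and ENSG00000006075 at −1.49. The difference was above 0 for IL6R (0.66), EIF4G1 (0.54) and PHACTR3 (0.93). With each of the 12 libraries left out in turn, the difference was lost in 10 fits for NFKB1 (adjusted p up to 0.165), in 10 for SQSTM1 (up to 0.119) and SPDYE3 (up to 0.214), in 9 for ZC3H12A (up to 0.155) and PSTPIP2 (up to 0.116), in 8 for FTH1 (up to 0.149) and in 2 for TNIP1 (up to 0.0579). SCR and WT differ both in the siRNA and, by 1 of the descriptions of WT, in the transfection, and these cannot be told apart.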

How the results depend on the processing

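The number of genes that LPS changed in SCR, 2869, was 2834 to 3372 under other scalings, without the filter, with DESeq2 and in fits to the 6 SCR libraries alone, and 85.8% to 99.1% of the 2869 were called in each of these. Leaving out 1 library gave 1789 to 2374 genes, 970 to 1232 of them higher and 799 to 1142 lower. The lower genes were 799 without LPS replicate 4 and 905 without unstimulated replicate 1, and the total was 1789 and 1875. Between 61.5% and 76.5% of the 2869 were called in these fits, and 0 changed sign under any alternative. The study's own call rule gave 548 genes (302 higher, 246 lower), and the same rule with DESeq2 on the 6 SCR libraries without a filter, an alternative added after seeing the data, gave 626. For the difference of the response from WT, 39 genes in the main test, DESeq2 gave 85 and the fit without a filter 241, other scalings gave 37 to 41, and leaving out a library gave 17 (without WT unstimulated replicate 1) to 91 (without WT unstimulated replicate 2). For the difference from KD, 0 genes in the main test, DESeq2 gave 3 and the fit without a filter 132, and leaving out a library gave 0 throughout. With the replicate number as a block these differences had 41 and 0 genes. Deviations of same-numbered SCR and WT libraries from their group means correlated at 0.26, 0.16 and 0.25 with LPS and at 0.06, 0.06 and −0.05 without, and those of SCR and KD at −0.09 to 0.09, so that same-numbered LPS libraries of SCR and WT deviated together and the other pairs did not all do so, and the block was not used for the values reported. No paired analysis was possible because, within SCR, unstimulated libraries are numbered 1 to 3 and LPS libraries 4 to 6.

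Some named genes that were not called had log2 fold changes near 0 that changed sign. With library totals alone EGR1 gave −0.0085 and RIGI −0.037. With libraries left out in turn, the log2 fold changes ranged from −0.41 to 0.17 for CXCL16, −0.092 to 0.20 for EGR1, −0.19 to 0.013 for PHACTR3, −0.087 to 0.057 for RELA, −0.043 to 0.19 for SPI1, −0.097 to 0.31 for TICAM1, −0.23 to 0.061 for TRAFD1 and −0.052 to 0.65 for ZFP36. Depth limits what can be said of low genes: 3 counts are 0.378 CPM in LPS replicate 4, and the filter left out genes such as IL6.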

Other observations

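Some genes outside the lists, chosen after their values were seen, changed by much. CHST2, a sulfotransferase that modifies ligands of selectins, had 4.31, 4.65 and 3.54 CPM without and 41.6, 28.4 and 32.0 CPM with LPS (log2 fold change 3.02, edgeR adjusted p 6.65e-10). Lower were DHRS9, a retinol dehydrogenase (223, 192 and 166 CPM without and 86.0, 82.6 and 92.8 CPM with LPS, −1.15), the guidance molecule RGMA (−1.74) and the collagen chain COL9A3 (−1.90). The groups of these 4 genes did not overlap. Of the identifiers to which no symbol was matched, ENSG00000129277 rose by 4.79 and ENSG00000006075 by 2.27, and they are given by identifier because no table used here pairs them with a name.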
